A study of Mus musculus with 48 samples.

Results

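Astrocyte transport and coupling genes were followed through 8 sample groups of mouse brain. They are 8 genes chosen by symbol, Slc1a2, Slc1a3, Glul, Aldh1l1, Gja1, Gjb6, Slc4a4 and Atp1b2, out of 48709 genes with a count in each library. All 8 were found by their Ensembl identifiers, and all 8 passed the filter on low counts in every comparison. Bulk RNA-sequencing of whole tissue gave 48 libraries from 46 mice, of which 2 mice were sequenced in 2 runs that were summed. All mice were labelled as strain C57BL/6J. Fmn2+/+ mice and mice with a knock out of Fmn2 (Fmn2-/-), a formin that nucleates actin filaments, gave dentate gyrus at 3 months of age (n = 5 and n = 5) and at 8 months (n = 3 and n = 5). A cross of this line with the amyloid model APPPS1-21, in which the Thy1 promoter drives human mutant APP and presenilin 1 in neurons, gave dentate gyrus at 3 months from mice labelled Fmn2-/-_APP (n = 7) and from mice labelled Fmn2+/+ APP (n = 9). A further experiment held 6 mice with the label APP and 6 wild-type mice at 4 months, whose titles name the prefrontal cortex (PFC) whereas their tissue field names the dentate gyrus.

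Astrocytes take up the glutamate that neurons release, turn it into glutamine and hand it back, and they clear potassium and buffer the acid that this work creates. The uptake is driven by the sodium gradient that the sodium-potassium pump maintains, and gap junctions join the cells into a network through which ions and metabolites spread. Slc1a2 (GLT-1) and Slc1a3 (GLAST) are the glial glutamate transporters and Glul is glutamine synthetase. Gja1 (connexin 43) and Gjb6 (connexin 30) form the astrocytic gap junctions, Slc4a4 (NBCe1) cotransports sodium and bicarbonate, Atp1b2 is a beta subunit of the pump, and Aldh1l1 is a folate enzyme used as a general astrocyte marker.

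Levels are given as CPM, that is reads on the gene scaled to a common library size with TMM factors over all 46 mice. A gene is called changed at an adjusted p-value under 0.05 from edgeR's quasi-likelihood test, with a log2 fold change of at least 0.25 in size within the Fmn2 experiment and of at least 0.5 in the comparisons with amyloid mice or prefrontal cortex titles. These bounds follow the legends of the study. Every adjusted p-value below is Benjamini-Hochberg adjusted over all genes tested in that comparison, and intervals are 95% intervals of the log2 fold change. In bulk tissue, fewer astrocytes and less RNA per astrocyte cannot be told apart. Nothing in the labels gives the litter or culture behind a mouse, and the tests take the mice as independent. The p-values set each difference against the spread between these mice.

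Properties of the libraries bear on the values. Fmn2 itself was at 93.1 to 108.8 CPM in Fmn2+/+ and 22.2 to 27.4 CPM in Fmn2-/- mice of 3 months, but at 83.3 to 101.8 CPM in the cross mice labelled Fmn2-/-_APP and at 18.9 to 23.4 CPM in those labelled Fmn2+/+ APP. The levels in the cross thus go against the labels, and both groups are called by their labels here. The samples with prefrontal cortex titles had summed levels of 5 dentate granule cell markers of 36.8 to 54.1 CPM, against 439 to 863 CPM in all other mice, and of 6 cortical neuron markers of 435 to 498 CPM against 77.5 to 219 CPM. The markers therefore go with the titles. The summed level of 4 choroid plexus markers was 4097 to 9039 CPM in 3 mice, 1 Fmn2-/- mouse of 3 months and 2 mice labelled Fmn2+/+ APP, and at most 602 CPM in all others. Comparisons with these mice were repeated without them. The total of reads on genes ran from 6818809 to 43921030 per mouse, and the lowest count of any member in any mouse was 215 (Aldh1l1). Fmn2-/- mice 2 and 3 of 8 months were as close to each other as 2 runs of the same mouse, with a chi-square over degrees of freedom of 1.62 against 1.72 and 2.15. They carry separate labels and were counted as 2 mice.

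The genes lie on 8 different chromosomes of the mouse genome (mm10), and all are protein-coding. Slc1a2 (ENSMUSG00000005089) spans chr2:102658659-102790784 and Slc1a3 (ENSMUSG00000005360) chr15:8634124-8710764. Glul (ENSMUSG00000026473) lies at chr1:153899944-153909723, Aldh1l1 (ENSMUSG00000030088) at chr6:90486427-90600203 and Gja1 (ENSMUSG00000050953) at chr10:56377330-56402513. Gjb6 (ENSMUSG00000040055) is found at chr14:57123303-57133611, Slc4a4 (ENSMUSG00000060961) at chr5:88886818-89239653 and Atp1b2 (ENSMUSG00000041329) at chr11:69599736-69605942. Exons of Glul, Slc1a2 and Aldh1l1 overlap other annotated genes. The most counted of these, Teddm2 within Glul, had a mean of 44.8 reads per mouse, against at least 8211 for Glul. Reads that fall on both genes of such a pair may have been left uncounted, and how many is not known.

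RefSeq gives sequence before the start of 7 of the 8 genes (build GRCm38.p6), with 2 start sites for Slc4a4. The 250 bases before the start are shown for the 4 genes that differed most between the PFC-titled and the dentate gyrus samples (Gja1, Slc1a3, Aldh1l1 and the upstream start of Slc4a4) and for Gjb6, which was highest in the amyloid dentate gyrus. They are written 5' to 3' on the strand of the gene. The RefSeq starts used for Aldh1l1, Slc4a4 and Slc1a2 lie inside the longer gene models given above, so that these sequences do not lie before the start of the model. Capitals mark matches on either strand. The motifs searched were the GC box with the letters GGGCGG, the box named CCAAT after its letters, and the TATA box with the letters TATAAA. The others were the AP-1 site, spelled TGANTCA, and the CRE half-site, spelled TGACGT. No matches overlapped.
Gja1, chr10:56377050-56377299 (+): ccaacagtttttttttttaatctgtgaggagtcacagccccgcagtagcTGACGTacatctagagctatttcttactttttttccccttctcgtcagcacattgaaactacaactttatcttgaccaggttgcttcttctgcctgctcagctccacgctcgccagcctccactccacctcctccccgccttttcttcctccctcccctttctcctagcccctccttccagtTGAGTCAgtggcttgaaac
Slc1a3, chr15:8710808-8711057 (-): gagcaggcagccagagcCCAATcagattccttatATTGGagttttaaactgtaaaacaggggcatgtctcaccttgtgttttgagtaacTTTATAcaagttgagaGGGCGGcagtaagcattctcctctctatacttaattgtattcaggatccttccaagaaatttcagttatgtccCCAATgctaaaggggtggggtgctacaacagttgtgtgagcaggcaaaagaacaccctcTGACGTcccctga
Slc4a4, chr5:88887010-88887259 (+): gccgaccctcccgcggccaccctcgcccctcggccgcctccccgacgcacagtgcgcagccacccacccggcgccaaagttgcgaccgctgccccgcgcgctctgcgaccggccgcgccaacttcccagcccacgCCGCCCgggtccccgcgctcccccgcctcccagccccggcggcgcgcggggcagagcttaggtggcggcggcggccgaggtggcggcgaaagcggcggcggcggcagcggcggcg
Aldh1l1, chr6:90550543-90550792 (+): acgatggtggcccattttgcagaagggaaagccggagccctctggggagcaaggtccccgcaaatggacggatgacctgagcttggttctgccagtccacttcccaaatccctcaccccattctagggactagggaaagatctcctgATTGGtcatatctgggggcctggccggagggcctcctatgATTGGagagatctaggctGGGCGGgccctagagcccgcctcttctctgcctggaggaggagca
Gjb6, chr14:57133612-57133861 (-): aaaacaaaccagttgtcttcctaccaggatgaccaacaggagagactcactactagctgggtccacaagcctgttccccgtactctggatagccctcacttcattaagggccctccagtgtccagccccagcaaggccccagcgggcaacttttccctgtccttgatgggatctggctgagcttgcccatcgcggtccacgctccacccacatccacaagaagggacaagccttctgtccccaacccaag

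No motif was held by all 4 of the genes that differed between regions. The GC box occurred before Slc1a3, Slc4a4 and Aldh1l1, a motif held by 32.7% of all 32851 promoters of this length. CCAAT boxes numbered 3 before Slc1a3 and 2 before Aldh1l1 (33.8% of promoters hold one). Gja1 had an AP-1 site at position -19 (6.75% of promoters) and a CRE half-site at -201, and Slc1a3 a CRE half-site at -13 (6.47% of promoters). Of the 5 sequences shown, that of Slc1a3 alone held a TATA box (12.4% of promoters). None of the 5 motifs was found before Gjb6 or before the internal RefSeq start of Slc1a2. Matches of letters are descriptions of the sequence and show no binding.

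**Figure D1:**
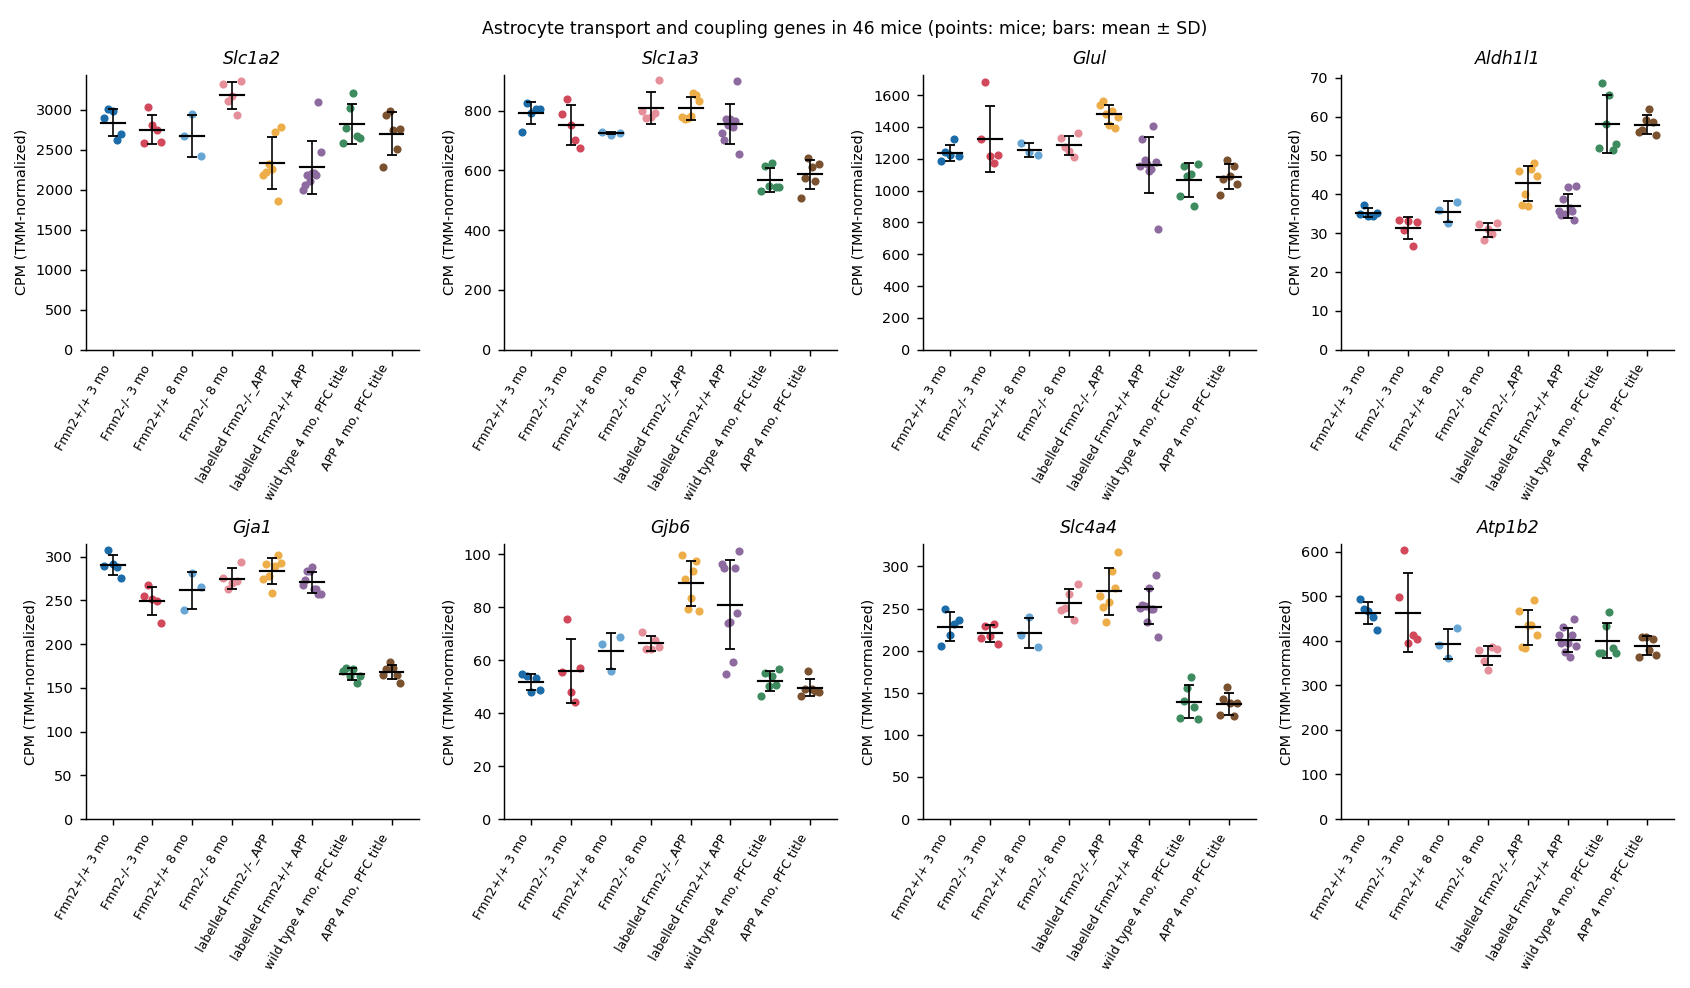
CPM of the 8 genes (vertical axes, TMM-normalized over all mice) by sample group, with 1 point per mouse and black bars for the mean ± SD. Gja1, Slc4a4 and Slc1a3 are lower and Aldh1l1 is higher in all 12 PFC-titled samples than in any of the 34 others, and Gjb6 is highest in the 2 groups of the amyloid cross. The share of all genes that separate the samples in this way was not counted.

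Between genes, levels were compared per kilobase of exon. On this scale Glul was the most abundant, with group means of 321 to 445 CPM per kb, followed by Slc1a2 with 174 to 242, Atp1b2 with 89.8 to 113 and Slc1a3 with 66.5 to 94.8. Gjb6 (18.5 to 33.3), Gja1 (16.2 to 28.3) and Slc4a4 (12.7 to 25) were close to each other, and Aldh1l1 was lowest with 6.83 to 12.9 CPM per kb. The glutamate and glutamine genes thus stood above the gap junction genes in every group. Across the 8 groups, the highest group mean was 1.26 times the lowest for Atp1b2, 1.39 times for Glul, 1.40 times for Slc1a2 and 1.42 times for Slc1a3. The ratio was 1.75 for Gja1, 1.80 for Gjb6, 1.89 for Aldh1l1 and 1.98 for Slc4a4. In the order of group means, most neighbouring groups overlapped in their mice. For Gja1, Slc1a3 and Slc4a4 the only gap lay between the dentate gyrus groups and the PFC-titled groups below them. For Aldh1l1 gaps lay below the PFC-titled groups and between the Fmn2+/+ and Fmn2-/- mice of 3 months, and for Slc1a2, Glul, Gjb6 and Atp1b2 no neighbours were apart. Such gaps were not counted over all genes.

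The loss of Fmn2 at 3 months was compared in 5 Fmn2-/- and 5 Fmn2+/+ mice. None of the 8 genes was called (0.0301% of 16630 genes tested were), and at an unadjusted p under 0.05 there were 2, Gja1 and Aldh1l1 (10.5% of all genes tested). Gja1, the major astrocytic connexin, was at 276, 288, 289.7, 292 and 307 CPM in Fmn2+/+ mice and at 224, 249, 251, 255 and 268 CPM in Fmn2-/- mice. Every Fmn2-/- mouse was thus below every Fmn2+/+ mouse. On the log2 scale the difference was -0.22 (interval -0.34 to -0.11, standard error 0.0544), with an adjusted p of 0.210 from edgeR. Aldh1l1 was at 34.3, 34.5, 35, 35.3 and 37.2 CPM in Fmn2+/+ mice and at 26.7, 30.9, 32.8, 33.2 and 33.3 CPM in Fmn2-/- mice. These groups did not overlap either, with a log2 fold change of -0.17 (interval -0.32 to -0.03, adjusted p = 0.416 from edgeR). Groups without overlap were found for 2.64% of all genes tested, and among the 8 for these 2. With DESeq2 the adjusted p of Gja1 was 0.00917, but its log2 fold change of -0.23 stayed under the minimum. All 5 Fmn2+/+ mice and 1 Fmn2-/- mouse were sequenced on lane 5 and the other 4 on lane 6. With lane as a covariate the log2 fold change was -0.18 for Gja1 and -0.08 for Aldh1l1.

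The glutamate genes overlapped between the genotypes at 3 months. Slc1a2 was at 2625, 2692, 2897, 2981 and 3006 CPM in Fmn2+/+ and at 2583, 2591, 2744, 2803 and 3030 CPM in Fmn2-/- mice (log2 fold change -0.05, interval -0.18 to 0.08). Glul was at 1187, 1217, 1221, 1241 and 1323 CPM in Fmn2+/+ and at 1174, 1216, 1226, 1323 and 1683 CPM in Fmn2-/- mice (0.09, interval -0.10 to 0.29). The highest value came from Fmn2-/- mouse 2, which also had the highest Gjb6 (75.3 CPM) and Atp1b2 (604 CPM) of its group. For the remaining members the log2 fold changes were -0.08 for Slc1a3, 0.11 for Gjb6, -0.06 for Slc4a4 and near 0 for Atp1b2, with intervals within -0.24 and 0.37. The median over the 8 genes was -0.06, beside 0.004 over all genes tested. None of the 22 other astrocyte transport and coupling genes and none of the 8 further genes of glutamate and glutamine metabolism was called.

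At 8 months 5 Fmn2-/- and 3 Fmn2+/+ mice were compared, and again no member was called (1.13% of 14665 genes tested). At an unadjusted p under 0.05 there were 4, Slc1a2, Slc1a3, Slc4a4 and Aldh1l1, as were 23.3% of all genes tested, and with the length and GC offset described below there were 0. Slc1a2 was at 2421, 2666 and 2945 CPM in Fmn2+/+ mice and at 2934, 3115, 3171, 3318 and 3365 CPM in Fmn2-/- mice. Only the highest Fmn2+/+ mouse reached into the range of the Fmn2-/- mice. Its log2 fold change was 0.26 (interval 0.08 to 0.43, standard error 0.0794, edgeR adjusted p = 0.104). Slc1a3 was at 720, 726 and 728 CPM in Fmn2+/+ and at 774, 778, 792, 799.7 and 901 CPM in Fmn2-/- mice, without overlap (log2 fold change 0.17, interval 0.01 to 0.32, adjusted p = 0.187 from edgeR). In this comparison 11.7% of all genes had groups without overlap. Slc4a4 was at 204, 219 and 239.9 CPM in Fmn2+/+ and at 237, 248, 251, 267 and 279 CPM in Fmn2-/- mice (log2 fold change 0.22, edgeR adjusted p = 0.137). Aldh1l1 was at 32.6, 35.9 and 37.9 CPM and at 28.2, 29.8, 31.1, 32.3 and 32.7 CPM (log2 fold change -0.20, adjusted p = 0.170 from edgeR).

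The differences in the transporters at 8 months were smaller once gene length and GC content were taken into account. With an offset for length and GC content in each library, the log2 fold change of Slc1a2 was 0.09 in place of 0.26, that of Slc1a3 was 0.03, and that of Slc4a4 was 0.08. With DESeq2 Slc1a2 was called (0.25, adjusted p = 0.0358), and without Fmn2+/+ mouse 2, the shallowest library, Slc1a2 and Slc4a4 were called (0.33 and 0.29). Gja1 was at 239, 265 and 281 CPM in Fmn2+/+ and at 263, 270.1, 272, 275 and 294 CPM in Fmn2-/- mice (0.08, interval -0.09 to 0.24). Its direction turned with the offset, to -0.10. Glul was at 1221, 1243 and 1301 CPM and at 1212, 1246, 1277, 1328 and 1359.7 CPM (0.04). Atp1b2 was at 362, 389.6 and 429 CPM and at 334, 354, 379, 381 and 386 CPM (-0.09). These 3 genes and Gjb6 (0.06) overlapped between the genotypes. Of the 22 other transport and coupling genes 1 was called, the water channel Aqp4, higher by a log2 fold change of 0.46 in Fmn2-/- mice (edgeR adjusted p = 0.0459, standard error 0.0941). This call was lost with the length and GC offset (0.31, adjusted p = 0.142, edgeR), with lane as a covariate (0.324), with both near-identical libraries summed (0.108) and in 6 of the 8 fits without 1 mouse. The 8 glutamate and glutamine partners held no call.

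**Figure D2:**
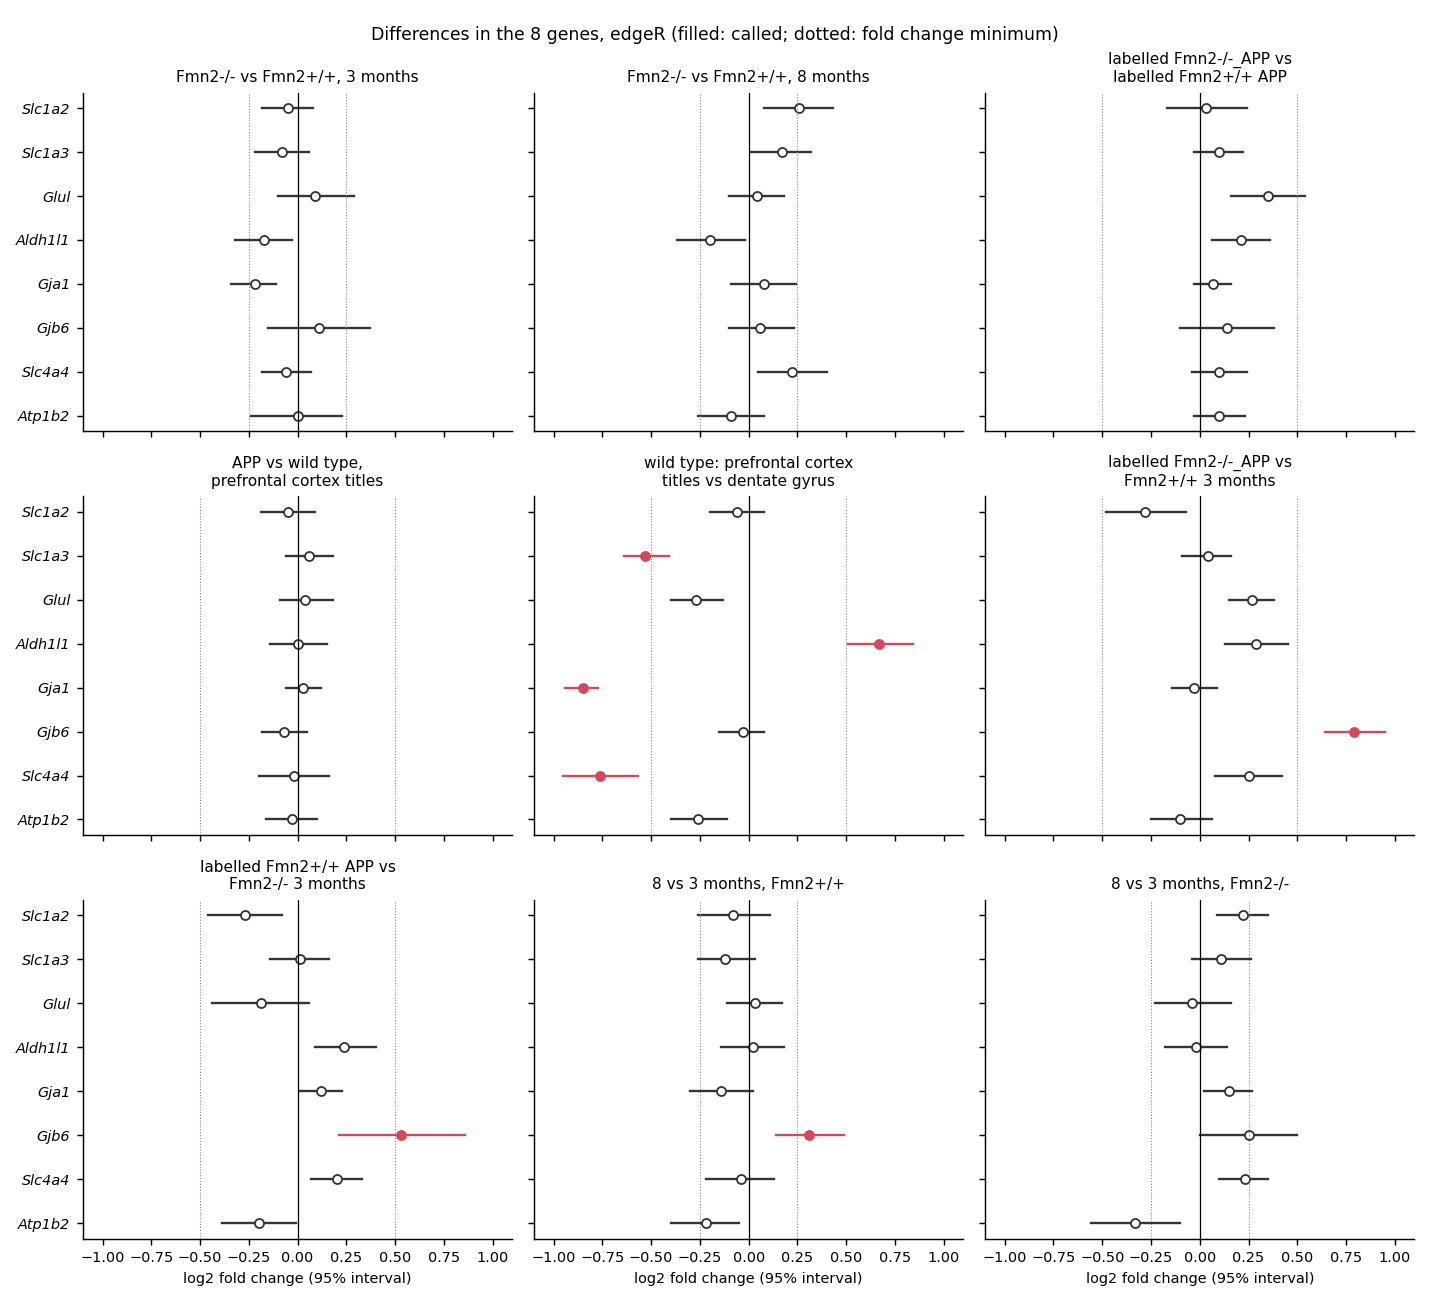
Log2 fold changes of the 8 genes with 95% intervals (horizontal axes) in 9 comparisons, with filled red points for called genes and dotted lines at the fold change minimum. Calls are found in the comparison between regions (4 genes), in both comparisons of amyloid dentate gyrus with dentate gyrus of the Fmn2 experiment (Gjb6) and between ages in Fmn2+/+ mice (Gjb6).

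Age was compared within each genotype, and these comparisons share their mice with the comparisons of the genotypes. The ages shared no sequencing lane in either genotype. Fmn2+/+ mice were on lane 5 at 3 months and on lanes 6 and 7 at 8 months, and Fmn2-/- mice on lanes 5 and 6 and on lane 7, so that lane and age cannot be told apart. Depth differed with age as well. The median total of reads on genes was 23137670 at 3 months and 8381078 at 8 months in Fmn2+/+ mice. In Fmn2-/- mice it was 32856438 and 9943023. From 3 to 8 months in Fmn2+/+ mice 1 member was called (5.98% of 16325 genes tested, and 3.90% upwards). This was Gjb6, at 47.8, 48.8, 53.3, 54 and 54.6 CPM at 3 months and at 55.9, 66.1 and 68.7 CPM at 8 months, without overlap (17.3% of all genes had none). The rise was 0.31 in log2 terms (interval 0.14 to 0.49, standard error 0.0812, edgeR adjusted p = 0.0460). The call is close to the threshold. It was lost with RLE scaling (adjusted p = 0.0539), without the filter on low counts (0.0508) and with the length and GC offset (0.0685). It was also lost with the replicate number as a block (edgeR adjusted p = 0.156) and in 7 of the 8 edgeR fits without 1 mouse. The meningeal fibroblast genes described with the amyloid cross summed to 458 CPM in the 8-month mouse with the highest Gjb6. They summed to 184 CPM in the mouse with Gjb6 at 66.1 CPM and to 111 CPM in that at 55.9 CPM. At 3 months the sum was 136 to 260.2 CPM. The part of these cells in the rise of Gjb6 was not tested. In Fmn2-/- mice Gjb6 was at 44.1, 47.8, 55.6, 57 and 75.3 CPM at 3 months and at 64, 64.3, 65.1, 67.6 and 70.5 CPM at 8 months (log2 fold change 0.25, interval 0.00 to 0.50, edgeR adjusted p = 0.211). Only Fmn2-/- mouse 2 of 3 months lay above the 8-month mice, and without it Gjb6 was called (0.38, adjusted p = 0.0152 from edgeR).

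In Fmn2-/- mice no member was called between 3 and 8 months (6.36% of 15752 genes tested), although Slc4a4 and Slc1a2 passed the adjusted p-value and missed the fold change minimum. Slc4a4 was at 208, 215, 218, 229 and 232 CPM at 3 months and at 237, 248, 251, 267 and 279 CPM at 8 months. All 5 older mice were above all 5 younger ones (log2 fold change 0.23, standard error 0.0568, edgeR adjusted p = 0.0276), as was found for 9.95% of genes in either direction. For Slc1a2 it was 0.22, with an edgeR adjusted p of 0.0411. Atp1b2, the beta subunit of the pump, was at 396, 404, 413, 499 and 604 CPM at 3 months and at 334, 354, 379, 381 and 386 CPM at 8 months. These groups did not overlap (log2 fold change -0.33, interval -0.56 to -0.10, edgeR adjusted p = 0.0746). Atp1b2 was called with DESeq2 (adjusted p = 0.0256), without the filter (0.0316) and without the choroid plexus rich mouse 4 (-0.38, 0.0475). It fell short in all other fits, and without mouse 2 of 3 months, the highest, it was at -0.22 (0.105).

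The other log2 fold changes between the ages in Fmn2-/- mice were 0.15 for Gja1, 0.11 for Slc1a3, -0.04 for Glul and -0.02 for Aldh1l1. In Fmn2+/+ mice Atp1b2 had -0.22 (edgeR adjusted p = 0.108), Gja1 -0.14, Slc1a3 -0.12, Slc1a2 -0.08 and Slc4a4 -0.04, and Glul and Aldh1l1 had 0.03 and 0.02. Whether age acted differently in the genotypes was tested as an interaction, in which no member was called (3.73% of 17046 genes tested). The largest terms were 0.30 for Slc1a2 (adjusted p = 0.0825, edgeR), 0.29 for Gja1 (0.0627) and 0.27 for Slc4a4 (0.102). Here too the length and GC offset left less, with 0.08, 0.04 and 0.08. With DESeq2 all 3 were called, as they were without Fmn2+/+ mouse 2 of 8 months. Of the other transport and coupling genes, Mlc1, a membrane protein of astrocyte endfeet, was called in both genotypes, with rises of 0.29 in Fmn2+/+ and 0.27 in Fmn2-/- mice. In Fmn2-/- mice Aqp4 (0.28) and Cldn10 (0.29) were also called higher and Fxyd1, a regulator of the pump, lower (-0.38). With the length and GC offset Mlc1 was no longer called in Fmn2+/+ mice (0.20), and in Fmn2-/- mice neither were Aqp4 (0.17), Cldn10 (0.28) and Fxyd1 (-0.26). Leaving out 1 mouse ended the call of Mlc1 in 6 of 8 fits in Fmn2+/+ and in 2 of 10 in Fmn2-/- mice, and those of Aqp4, Cldn10 and Fxyd1 in 6, 8 and 7 of 10.

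The amyloid transgene was compared with wild type in the samples with prefrontal cortex titles, 6 mice each at 4 months. No member was called (2.34% of 16733 genes tested), at an unadjusted p under 0.05 there was none (14.3% of all genes), and all 8 log2 fold changes lay between -0.07 and 0.06. The median was -0.01, and every interval lay within -0.20 and 0.18, so changes of the size of the minimum of 0.5 are outside them. Slc1a2 ran from 2282 over a median of 2752 to 2986 CPM in APP mice and from 2578 over 2719.7 to 3213 CPM in wild-type mice (log2 fold change -0.05, standard error 0.0675). Glul ran from 974 over 1082 to 1195 CPM and from 906 over 1099.5 to 1169.7 CPM (0.04, standard error 0.0639). The groups overlapped for both, as for all 8 genes (3.26% of genes had groups apart). Gja1 ran from 155 over 169 to 179 CPM in APP and from 155 over 167 to 173 CPM in wild-type mice (0.03), and Gjb6 from 46.6 over 48.7 to 55.7 CPM and from 46.5 over 52.2 to 56.7 CPM (-0.07). Connexins 43 and 30 thus overlapped too. Slc1a3 ran from 508 over 593 to 641 CPM in APP and from 532 over 547 to 625 CPM in wild-type mice (0.06), and Aldh1l1 from 55.3 over 57.6 to 61.9 CPM and from 51.5 over 55.4 to 68.7 CPM (near 0). Slc4a4 ran from 122 over 138 to 157 CPM and from 119 over 136 to 169 CPM (-0.02), and Atp1b2 from 363 over 392 to 409 CPM and from 372 over 378 to 465 CPM (-0.03). With DESeq2 no member was called either, and none was called under any other setting tried.

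Other astrocyte genes did move in the same 12 libraries. Gfap, the intermediate filament of astrocytes, was at 179 to 294 CPM (median 265) in APP mice and at 50.8 to 70.1 CPM (median 60.9) in wild-type mice, without overlap. The rise was 2.10 in log2 terms (standard error 0.114, edgeR adjusted p = 9.25e-10). Of the 8 reactive astrocyte markers tested 3 were called, all upwards (Gfap, C4b and Osmr), as were 6 of 7 microglia markers. Of the 22 other transport and coupling genes the urea transporter Slc14a1 alone was called, with a rise of 0.86 (adjusted p = 6.12e-06 from edgeR), while Aqp4 passed the adjusted p-value (0.0032) below the fold change minimum, at 0.30. All 6 oligodendrocyte markers were lower at an unadjusted p under 0.05 from edgeR (14.3% of all genes in either direction), with a median of -0.79 (-0.85 to -0.51), and 1 was called. Their summed level ran from 1358 over a median of 1973 to 2079 CPM in APP mice. In wild-type mice it ran from 2207 over 2485 to 6202 CPM, so that the highest wild-type library lay far above the median of its group. All APP libraries of this experiment were sequenced on lane 7 and all wild-type libraries on lane 5, so that lane and genotype cannot be told apart.

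**Figure D3:**
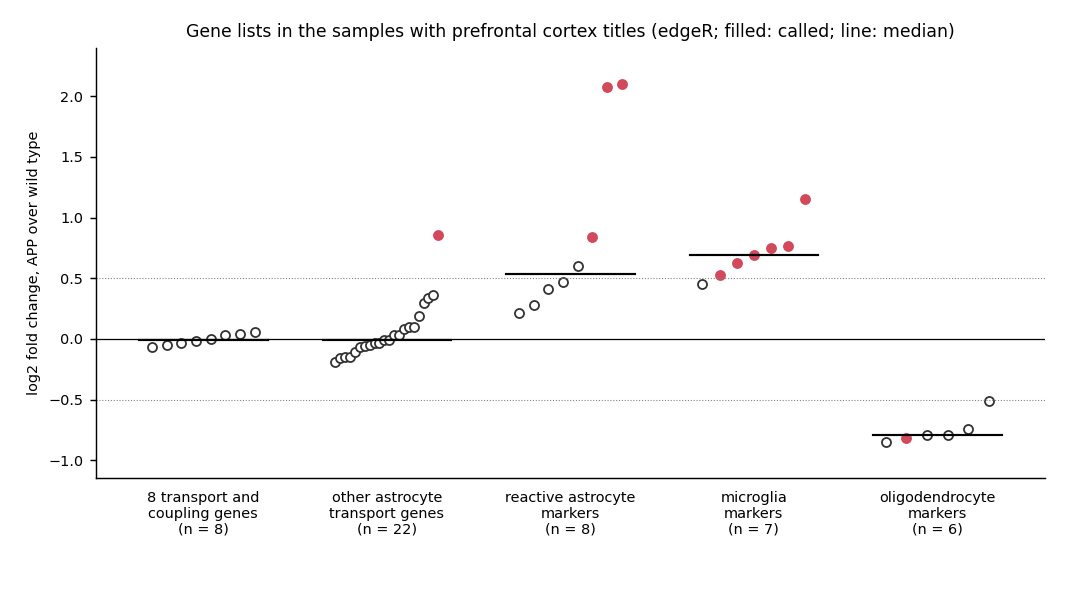
Log2 fold change of APP over wild type in the samples with prefrontal cortex titles (vertical axis) for 5 gene lists, with 1 point per gene tested, filled where called, and a line at the median. The 8 transport and coupling genes sit between -0.07 and 0.06, whereas Gfap and C4b are at 2.10 and 2.08.

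Within the amyloid cross, the 7 mice labelled Fmn2-/-_APP were set against the 9 labelled Fmn2+/+ APP, with the Fmn2 level opposite to the labels as given above. No member was called (0.774% of 16656 genes tested), and at an unadjusted p under 0.05 there were 2, Glul and Aldh1l1, beside 16.6% of all genes tested. Glul, glutamine synthetase, ran from 1395 over a median of 1480.2 to 1562 CPM in mice labelled Fmn2-/-_APP. In those labelled Fmn2+/+ APP it was at 756 in mouse 9 and otherwise between 1123 and 1404 CPM, with a median of 1164. The ranges met only at the ends, 1404 against 1395 CPM, and with the scaling of this comparison alone they did not overlap (0.552% of genes). The log2 fold change was 0.35 (interval 0.16 to 0.54, standard error 0.0896, edgeR adjusted p = 0.0565). Without mouse 9 it was 0.29. With DESeq2 the adjusted p was 0.00708, at a fold change still under the minimum of 0.5. With the length and GC offset 1 of the 8 genes had an edgeR adjusted p under 0.05. The largest log2 fold change among them was then 0.40, and none was called. Mouse 9 had the highest Gfap of all mice, 2842 CPM, in a group whose lowest was 601 CPM. Mice 8 and 9 labelled Fmn2+/+ APP were sequenced on lane 7 alone, and all other mice of the cross on lane 5, on lane 6 or on lanes 4 and 7. Whether the astrocyte state or the lane of mouse 9 bears on its Glul was not tested.

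Aldh1l1 ran from 37.1 over 44.6 to 48.0 CPM in mice labelled Fmn2-/-_APP and from 33.5 over 35.7 to 42.0 CPM in those labelled Fmn2+/+ APP (log2 fold change 0.21, standard error 0.0708, edgeR adjusted p = 0.143). All other members also had positive fold changes, between 0.03 for Slc1a2 and 0.14 for Gjb6, with overlapping groups. Slc1a3 ran from 773 over 783 to 859.9 CPM in mice labelled Fmn2-/-_APP and from 656 over 751 to 900 CPM in those labelled Fmn2+/+ APP (0.10, interval -0.03 to 0.22). Gja1 ran from 258 over 289 to 302 CPM and from 257 over 268 to 288 CPM (0.07, interval -0.03 to 0.16). In these genes the median was higher in mice labelled Fmn2-/-_APP, as it was for the bicarbonate transporter and the pump subunit. Slc4a4 ran from 234 over 265 to 317 CPM and from 216 over 251 to 289.8 CPM (0.10), and Atp1b2 from 384 over 435 to 491 CPM and from 363 over 395 to 448 CPM (0.10). The median over the 8 genes was 0.10, beside 0.006 over all genes tested. Markers of other cells and states moved with these values. All 6 oligodendrocyte markers were higher in mice labelled Fmn2-/-_APP, each at an unadjusted p under 0.05 (median 0.39, 0.29 to 0.60), while 7 of 8 reactive astrocyte markers (median -0.80) and 6 of 7 microglia markers (median -0.23) were negative. None of these was called, and their part in the values of the 8 genes was not tested. The 10 listed reactive astrocyte markers summed to 3360.2 CPM in mouse 9 and 1623 CPM in mouse 8 labelled Fmn2+/+ APP. They summed to 729 to 1241 CPM in the others of that group and to 450.5 to 1089 CPM in mice labelled Fmn2-/-_APP. The oligopeptide transporter Slc15a2 was the 1 call among the 22 other transport and coupling genes (0.64, adjusted p = 0.0202 from edgeR, and 0.0782 without the choroid plexus rich mice), and no glutamate or glutamine partner was called. Choroid plexus markers differed between these groups, with up to 9039 CPM in the group labelled Fmn2+/+ APP against at most 114 CPM in the other. Without the 2 choroid plexus rich mice the log2 fold change of Glul was 0.33 (edgeR adjusted p = 0.149), and no member was called.

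To set the amyloid dentate gyrus against dentate gyrus without the transgene, groups with a like Fmn2 level were compared across experiments. These comparisons share their controls with those of the Fmn2 experiment, and the transgene cannot be told apart from the experiment. Gjb6 was called in both. In mice labelled Fmn2-/-_APP it ran from 78.6 over a median of 90.4 to 99.5 CPM, above all 5 Fmn2+/+ mice of 3 months (at most 54.6 CPM). It was 0.79 higher on the log2 scale (interval 0.64 to 0.95, standard error 0.0717, edgeR adjusted p = 6.99e-06), the single member called (16.9% of 16592 genes tested, and 9.44% upwards). Gjb6, Glul and Aldh1l1 did not overlap between these groups, as for 21.6% of all genes. No alternative and no fit without 1 mouse ended this call. In mice labelled Fmn2+/+ APP Gjb6 ran from 54.9 over 77.9 to 100.7 CPM, against 44.1, 47.8, 55.6, 57 and 75.3 CPM in Fmn2-/- mice of 3 months. There it was 0.53 higher (interval 0.21 to 0.86, standard error 0.155, adjusted p = 0.0164 from edgeR), again the single call (10.9% of 17020 genes tested, and 6.03% upwards). The groups overlapped for all 8 genes, while 10.3% of genes had groups apart. This call was lost below the minimum of 0.5 or the threshold with the length and GC offset (0.46) and in 6 of the 14 fits without 1 mouse, those without Fmn2-/- mice 4 or 5 or without mice 1, 3, 7 or 9 labelled Fmn2+/+ APP.

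**Figure D4:**
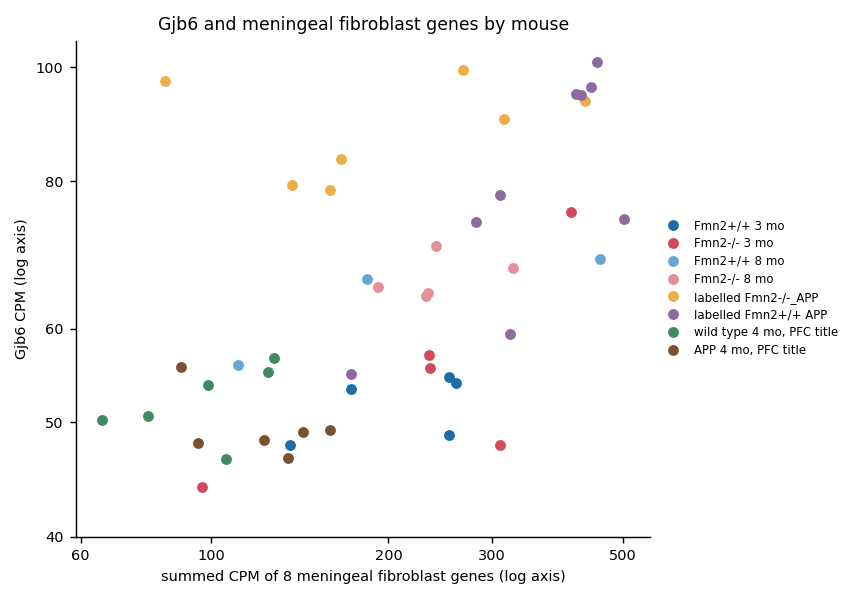
Gjb6 (vertical axis, CPM) against the summed CPM of 8 meningeal fibroblast genes (horizontal axis), both on log axes, with 1 point per mouse. Within groups Gjb6 is mostly higher where the meningeal genes are higher (r = 0.51 over 46 mice). The mouse labelled Fmn2-/-_APP with the lowest meningeal sum of all amyloid mice, 83.6 CPM, has Gjb6 at 97.4 CPM. The other mice of its group have sums of 137 to 431 CPM and Gjb6 at 78.6 to 99.5 CPM. The list of meningeal genes was chosen after the values were seen, and their part in the level of Gjb6 was not tested.

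Genes of meningeal fibroblasts, cells of the membranes that cover the brain, moved with Gjb6 within groups. The sum of 8 meningeal fibroblast genes (Col1a1, Col1a2, Dcn, Lum, Ogn, Slc6a13, Slc47a1 and Igf2), a list chosen after the values were seen, had medians of 166 CPM (83.6 to 431) in mice labelled Fmn2-/-_APP and 416 CPM (173 to 503) in those labelled Fmn2+/+ APP. It had medians of 253 CPM (136 to 260.2) in Fmn2+/+ and 235 CPM (96.3 to 409) in Fmn2-/- mice of 3 months. The part of these cells in the level of Gjb6 was not tested. Gjb2, connexin 26, a partner of connexin 30 in such junctions, was also called higher in mice labelled Fmn2+/+ APP (1.07, standard error 0.354, edgeR adjusted p = 0.0316), a call lost without the choroid plexus rich mice (0.0635) and in 6 of 14 fits without 1 mouse. Group means of Gfap were 504 and 1085 CPM in the cross and 368 and 513 CPM in the Fmn2+/+ and Fmn2-/- mice of 3 months.

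The remaining members were not called in either comparison. Slc1a2 was lower at an adjusted p under 0.05 but below the fold change minimum in both, at -0.28 (standard error 0.0944, adjusted p = 0.0328, edgeR) and -0.27 (0.0885, 0.0320). Its range was 1862 to 2788 CPM in mice labelled Fmn2-/-_APP and 1991 to 3097 CPM in those labelled Fmn2+/+ APP, overlapping with the 2583 to 3030 CPM of the 3-month mice. The length and GC offset left -0.08 and -0.15. Aldh1l1 (0.29 and 0.24) and Slc4a4 (0.25 and 0.20) also passed the adjusted p-value below the minimum in both, and Glul did so in mice labelled Fmn2-/-_APP alone (0.27, adjusted p = 0.00181). Slc1a3, Gja1 and Atp1b2 had adjusted p-values of at least 0.0904. The summed level of 4 neuron markers was 3152 to 4629.6 CPM in the cross and 6028 to 8379.8 CPM in the 3-month mice of the Fmn2 experiment, and its part in these values was not tested. Among the other transport genes the potassium channel Kcnj10 was called lower (-0.65) and Mlc1 higher (0.72) in mice labelled Fmn2-/-_APP. In mice labelled Fmn2+/+ APP, Slc7a11 (0.59) was called higher and Slc15a2 (-0.53) lower, and the partners Gls2, a glutaminase (-0.57), and Slc17a6, a vesicular glutamate transporter (-1.90), were called lower. The call of Slc7a11 was lost without the choroid plexus rich mice and in 9 of 14 fits without 1 mouse, that of Slc15a2 in 3 and that of Slc17a6 in 1.

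Most calls among the 8 genes were made between brain regions as given by the titles, the comparison with the highest share of calls over all genes too. Wild-type samples with prefrontal cortex titles (4 months, n = 6) were compared with dentate gyrus of Fmn2+/+ mice (3 months, n = 5), which differ also in age and experiment, so that these cannot be told apart from the region. Of the 8 genes 4 were called, 3 lower and 1 higher, in a comparison in which 45.1% of 16661 genes tested were called (21.3% lower and 23.8% higher). Gja1 ran from 155 over a median of 167 to 173 CPM in PFC-titled samples, against 276 to 307 CPM in dentate gyrus. The log2 fold change was -0.85 (interval -0.94 to -0.77, standard error 0.0402, edgeR adjusted p = 1.24e-10). Slc4a4 ran from 119 over 136 to 169 CPM against 205 to 250 CPM (-0.76, standard error 0.0883, adjusted p = 1.73e-06, edgeR), and Slc1a3 from 532 over 547 to 625 CPM against 728 to 826 CPM (-0.53, standard error 0.0523, adjusted p = 3.30e-07, edgeR). Aldh1l1 went the other way, from 51.5 over 55.4 to 68.7 CPM against 34.3 to 37.2 CPM (0.67, interval 0.51 to 0.84, standard error 0.0770, edgeR adjusted p = 1.50e-06). Neither these 4 genes nor Glul overlapped between the groups, and 58.2% of all genes did not. Calls and groups without overlap were thus about as frequent among the 8 genes as over all genes.

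The log2 fold change was -0.27 for Glul and -0.26 for Atp1b2 in PFC-titled samples, both with adjusted p-values under 0.05 (0.00155 and 0.00285, edgeR) and under the minimum of 0.5. Slc1a2 (-0.06, interval -0.20 to 0.08) and Gjb6 (-0.03, interval -0.15 to 0.08) did not pass, and their intervals exclude changes as large as the minimum. With the length and GC offset Aldh1l1 was at 0.38 and Slc1a3 at -0.45, both no longer called, and Gja1 (-0.69) and Slc4a4 (-0.70) were still called. Without PFC-titled wild-type mouse 1, Slc1a3 was at -0.50 and just under the minimum.

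Across all mice, the same 4 genes kept the 12 PFC-titled samples, with and without the transgene, apart from the 34 dentate gyrus samples of both experiments. Gja1 was at 155 to 179 CPM against 224 to 307, Slc4a4 at 119 to 169 against 204 to 317, and Slc1a3 at 508 to 641 against 656 to 901 CPM. Aldh1l1 was at 51.5 to 68.7 against 26.7 to 48.0 CPM. For Slc1a2, Glul, Gjb6 and Atp1b2 the ranges overlapped. These ranges are given as a description, without a test, and the share of all genes with such ranges was not counted. In the comparison of the wild-type samples above, 58.2% of all genes had groups without overlap. In that comparison 45.1% of all genes tested were called. Of the 22 other transport and coupling genes 9 were called in it, 7 lower and 2 higher, a share near that over all genes. The largest were Slc14a1 (-1.83), Aqp4 (-1.14), Slc15a2 (-1.06) and Fxyd1 (-0.89). The glycine transporter Slc6a9 was called higher (0.87), and was picked out after its value was seen. Of the 8 partners Gls2 was called higher (0.87) and 3 lower, with Slc17a6 at -1.27. With the length and GC offset Slc6a9 (0.43) and Gls2 (0.46) were under the minimum and no longer called, and without 1 mouse Slc17a6 lost its call in 2 of 11 fits. Among 8 astrocyte identity markers 4 were called lower, Gfap by -2.65, and none higher.

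The members' joint variation was described with the differences between groups removed. Deviations of log2 CPM from the group means over 46 mice gave a median Pearson's r of 0.30 over the 28 pairs, from -0.06 to 0.67, and 24 pairs were above 0. The points share library, depth and RNA composition, and no test is given. The highest values joined the transporters, with 0.67 for Slc1a3 and Slc4a4, 0.60 for Slc1a2 and Slc4a4, 0.51 for Slc1a3 and Glul and 0.50 for Slc1a2 and Slc1a3. The 2 gap junction genes, Gja1 and Gjb6, showed none (r near 0). Gjb6 was highest with Atp1b2 (0.45) and lay between -0.06 and 0.21 with all others. It correlated with Gfap at 0.50, whereas the other members lay between -0.26 (Glul) and 0.31 (Slc1a2).

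**Figure D5:**
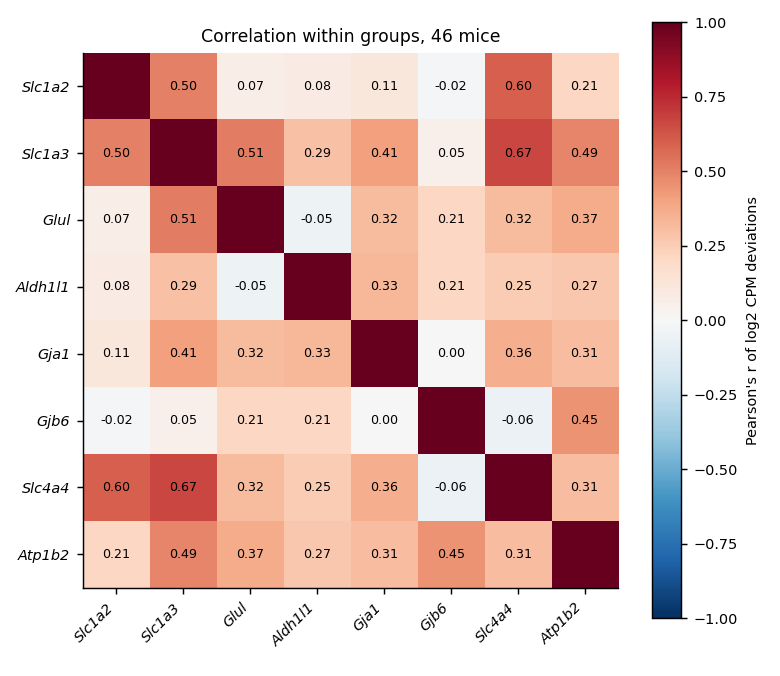
Pearson's r (colour and number) between the 8 genes, from deviations of log2 CPM from the mean of each of the 8 groups over 46 mice. Slc1a2, Slc1a3 and Slc4a4 are joined by values of 0.50 to 0.67, and Gjb6 lies between -0.06 and 0.21 except with Atp1b2 (0.45).

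Over 11742 genes of at least 5 CPM, the genes most like each member on the same measure were, for Slc1a3, Rfx4 and Fads1 (r = 0.69 each), and for Slc4a4, Nwd1 (0.76) and Zfp652 (0.73). Gjb6 was closest to Fn1, fibronectin (0.79), Wfdc1 and Slc13a3 (0.75 each), and Gja1 to Yes1 (0.63) and Agtrap (0.61). Slc1a2 was closest to Ppp1r9a and Plxna4 (0.80 each) and Glul to Rbl2 (0.70). Aldh1l1 was nearest to Capn2 (0.63) and Atp1b2 to Epb41 and Agap1 (0.69 each). No member was among the 3 genes most like another member.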

How the data were processed

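RNA was isolated with TRIZOL from whole tissue and made into Illumina TruSeq libraries. The authors aligned the reads with STAR to mm10 and counted them on genes with HTSeq, and the deposited values are these raw counts, 1 table per library. The annotation release and the strand setting are not given in the sources used here. Runs of the same mouse were summed. Groups come from the labels.

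Gene symbols, positions, exon lengths and GC contents came from GENCODE M21, which matched 48349 of 48709 identifiers. Each comparison was fitted on its own mice with edgeR 4.0.16 (filterByExpr, TMM, glmQLFit and glmQLFTest, R 4.3.3), with Benjamini-Hochberg adjustment, and the scripts were tested on simulated data. Alternatives were DESeq2 1.42.0, RLE scaling, no filter, an offset from splines on length and GC content, the replicate number as a block, lane as a covariate, both near-identical libraries summed, and each mouse left out. A fit without choroid plexus rich libraries was added after seeing the data. Log2 CPM used a prior count of 2.

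The members and the lists were chosen with earlier results of these data known. All members were named in every comparison, with at most 4 called genes of the other transport genes and 2 of the partners by size of change. Between the regions Slc6a9 was named in addition to these. Values of some genes of the lists are not reported here. Same-numbered mice did not deviate together throughout in any comparison, so the numbers were not taken as pairs. No sequence before the start of Atp1b2 was used here. Total reads on genes per mouse ran from 6818809 to 43921030. Intervals rest on the spread between mice, taken as independent.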

Additional observations from a re-analysis of the deposited data

Results flagged for a closer look

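In 56 combinations of member and group with 5 to 9 mice, the gap of the highest or lowest mouse to the next was set against the range of the group. In 5 of them 1 mouse stood apart, where chance gives about 1 in 20.

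Mouse 8 labelled Fmn2+/+ APP was the highest of its group for both glutamate transporters, with Slc1a2 at 3097 CPM against 1991 to 2475 CPM in the other 8 mice and Slc1a3 at 900 CPM against 656 to 773 CPM. Mouse 9 of the same group had the lowest Glul, 756 CPM against 1123 to 1404 CPM. Mice 8 and 9 were the only mice of the cross sequenced on lane 7 alone, and the part of the lane in these values was not tested. Fmn2-/- mouse 5 of 8 months had the highest Slc1a3, 901 CPM against 774 to 799.7 CPM in the other 4. PFC-titled APP mouse 3 had the highest Gjb6, 55.7 CPM against 46.6 to 49.2 CPM in the other 5. No member was called in edgeR's interaction of genotype and age, while DESeq2 called 3, Slc1a2 (0.31), Gja1 (0.31) and Slc4a4 (0.28).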

How the results depend on the processing

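Of 1440 fold changes of members refitted under alternatives, 1399 kept their side of the call, 22 lost it, 18 gained it and 1 reversed. Among the 1399 were 74 changes of sign between uncalled values. In each of these the main value, the refitted value or both lay within 1 standard error of 0. The reversal was Gja1 between the genotypes at 8 months, at -0.10 with the length and GC offset. No member was called under any setting at 3 months between the genotypes, within the cross, or between APP and wild type.

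DESeq2 called 1 member at 8 months between the genotypes (Slc1a2), 1 between ages in Fmn2-/- mice (Atp1b2) and 3 in the interaction. The length and GC offset left 2 members between the regions and 0 in mice labelled Fmn2+/+ APP against Fmn2-/- mice, and between ages in Fmn2+/+ mice it replaced Gjb6 by Atp1b2. RLE scaling and the missing filter left 0 members between ages in Fmn2+/+ mice. The missing filter and the fit without choroid plexus rich libraries called 1 (Atp1b2) between ages in Fmn2-/- mice. Without 1 mouse, members called ran from 0 to 2 between genotypes at 8 months, 3 to 4 between regions, 1 to 1 and 0 to 1 in the amyloid dentate gyrus, 0 to 1 and 0 to 2 between ages, and 0 to 3 in the interaction.

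Calls over all genes are given in percent of genes tested, and those without the filter divide by more genes. At 3 months between the genotypes 0.0301% became 0.547% with DESeq2, 0.0451% without the filter, 0.018% with RLE or lane, 0.0181% with the offset and 0.0177% without choroid plexus rich libraries (0.0177% to 0.294% without 1 mouse). At 8 months 1.13% became 5% with DESeq2, 3.93% without the filter, 0.232% with the offset, 0.0205% with lane and 0.0337% with both near-identical libraries summed. In the cross 0.774% became 1.83% with DESeq2 and 0.341% without choroid plexus rich libraries (0.44% to 1.02% without 1 mouse). Between ages in Fmn2+/+ mice 5.98% became 10.5% with DESeq2, and in Fmn2-/- mice 6.36% became 2.35% with the offset (3.4% to 7.01% without 1 mouse). In the interaction 3.73% became 8.22% with DESeq2, 1.24% without the filter, 0.147% with the offset and 1.33% with the libraries summed. Without 1 mouse the share was 2.17% to 2.49% between APP and wild type, 43.9% to 45.3% between regions, and 14.2% to 18.1% and 9.09% to 11.9% in the amyloid dentate gyrus. Single mice moved the 8-month comparisons widely. Without Fmn2+/+ mouse 1 of 8 months the share was 0.0268% between genotypes, 0.899% between ages and 0.0465% in the interaction, and without mouse 2 it was 20.6%, 18.9% and 15.9%. Without any 1 of the Fmn2-/- mice of 8 months the share between genotypes was 0.0274% (mouse 4) to 0.068% (mouse 1). Between ages in Fmn2+/+ mice it was 1.6%, 1.21% and 1.84% without mice 1, 2 and 3 of 3 months and 1.48% without mouse 3 of 8 months. In the interaction it was 0.559% without the latter, 1.34% to 1.68% without those 3 mice of 3 months, 1.53% without Fmn2-/- mouse 6 of 3 months and 1.15% to 1.59% without Fmn2-/- mouse 2, 3, 4 or 5 of 8 months.

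The replicate number as a block, on mice whose number occurs in both groups, gave 0.0122% at 3 months, 0.0277% at 8 months, 1.42% and 0.653% between ages and 0.178% in the interaction. It left 0 members called in mice labelled Fmn2+/+ APP against Fmn2-/- mice and 0 between ages in Fmn2+/+ mice, where Gjb6 was at 0.36 and 0.30, and changed no other count of members called. Mean correlations of same-numbered mice were between -0.063 and 0.097, and the fits use fewer mice. The cause of these moves was not tested. Depth limits Aldh1l1 most, with 215 reads in the shallowest library.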
